A study of Mus musculus with 17 samples.

Results

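The genes described here are 10 ligands, receptors and modulators of TGF-beta and activin signaling. They are the ligand genes Tgfb1, Tgfb2 and Tgfb3, the latent TGF-beta binding protein gene Ltbp1, the receptor genes Tgfbr1, Tgfbr2 and Tgfbr3, the activin subunit genes Inhba and Inhbb, and follistatin (Fst). They were chosen by name. The platform annotation gave them 24 of the 45101 probe sets on the array, each annotated to 1 symbol, and the probe set with the highest mean stood for the gene, as for all 18193 genes measured. Expression was measured on 17 Affymetrix mouse expression arrays hybridized with RNA of sorted mouse skeletal stem cells (mSSC, 9 arrays) or of their progeny, the bone, cartilage and stromal progenitors (mBCSP, 8 arrays). The study asked how ovarian estrogen acts on these cells in fracture repair.

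All mice were female C57BL/6. The ovaries were removed (OVX) or the surgery was a sham when mice were 8 weeks old. Femurs were broken after a further 6 weeks, and cells were sorted from callus or uninjured femur on day 7 of healing. OVX + E2 mice also carried a 0.18 mg pellet that released 17-beta estradiol from the time of ovariectomy. Callus gave 12 arrays, 4 of sham, 2 of OVX and 2 of OVX + E2 mice, 2 with labels that conflict on the surgery (OVX in the title, sham in the treatment field) and 2 with no surgery stated. Uninjured bone gave 5 arrays, 3 of sham and 2 of OVX mice. The arrays form 8 pairs of 1 mSSC and 1 mBCSP array of the same condition, and 1 sham uninjured mSSC array has no partner. The titles carry codes of 3 forms, called A, B and C here. Form A (6 arrays) holds callus only, form B (7 arrays) and form C (4 arrays) hold both callus and uninjured bone, and the labels do not say what the forms stand for. Nothing in the labels says which arrays came from separate mice, or whether mice were pooled, so the p-values measure only the spread between these arrays.

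TGF-beta is secreted in a latent complex that latent TGF-beta binding proteins tether to the matrix, and it acts once it is released. TGF-beta and activin each bring type II and type I receptors together, and the type I receptor then phosphorylates Smad2 and Smad3, which enter the nucleus with Smad4. Bone matrix is a large store of latent TGF-beta, and both ligand families are known regulators of cartilage and bone formation. Follistatin binds activin and keeps it from its receptors, and Tgfbr3 (betaglycan) presents TGF-beta to the signaling receptors and helps inhibin to oppose activin.

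RefSeq promoters (GRCm38.p6, 250 bases before to 50 after a gene start) were found for 7 of the 10 genes, and Tgfb3, Tgfbr3 and Fst had no entry. The last 120 bases before the start are shown for Tgfb2 and Ltbp1, which changed most with injury, for Inhba, the activin gene that rose with it, and for Tgfb1, a ligand gene that was not called. Capitals mark motifs found by letter match on either strand, and all are written 5′ to 3′ on the strand of the gene.
Tgfb2, chr1:186705990-186706109, minus strand: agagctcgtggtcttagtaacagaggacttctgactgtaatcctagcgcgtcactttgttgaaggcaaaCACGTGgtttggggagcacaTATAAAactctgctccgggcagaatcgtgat
Ltbp1, chr17:75005409-75005528, plus strand: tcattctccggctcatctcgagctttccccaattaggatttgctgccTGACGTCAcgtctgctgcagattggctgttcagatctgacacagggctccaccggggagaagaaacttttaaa
Inhba, chr13:16011731-16011850, plus strand: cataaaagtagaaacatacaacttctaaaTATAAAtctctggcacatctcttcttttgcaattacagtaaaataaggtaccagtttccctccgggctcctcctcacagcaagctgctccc
Tgfb1, chr7:25686882-25687001, plus strand: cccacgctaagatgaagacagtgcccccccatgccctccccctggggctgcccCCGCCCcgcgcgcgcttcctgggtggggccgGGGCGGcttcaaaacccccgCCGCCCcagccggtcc

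The Tgfb2 stretch holds an E-box (CACGTG, in 7.15% of all 32851 promoters) and a TATA box (TATAAA, 13.6%), and the Inhba stretch holds a TATA box. The first of the 2 Ltbp1 promoters holds a cAMP response element (TGACGTCA, 1.79%). The Tgfb1 promoter holds 6 GC boxes (GGGCGG, 35.7%), 3 of them in the stretch shown, and Tgfbr1 and Inhbb have 2 and 1. The SMAD element CAGACA (21.0%) was found in promoters of Tgfb2, Tgfbr1 and Ltbp1, and no member promoter held the AP-1 site TGANTCA (7.81%) or the estrogen response element, GGTCA and its reverse complement with 3 bases between them (0.07%). None of these matches overlapped another. A match describes the letters only, and no match says nothing of whether a factor acts on the gene.

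Before the results, the labelled cell types were set against their markers. Values are log2 signals, and a difference of 1 on this scale is a factor of 2 in signal. The mean of 6 skeletal markers (among them Prrx1, Sox9 and Col1a1) lay between 11.78 and 12.79 on the callus arrays. On the uninjured arrays it was 7.83 and 8.27 for the sham arrays of form C, 9.99 for the sham array of form B, and 10.57 and 11.01 for the OVX arrays. Ptprc, which encodes the leukocyte antigen CD45 that the sort was stained for, lay between 13.79 and 14.74 on the uninjured arrays and between 6.58 and 13.53 on callus arrays. The mean of 7 neutrophil markers (S100a8, S100a9, Ltf and others) lay between 13.78 and 14.84 on uninjured and 9.78 and 14.10 on callus arrays. All 7 neutrophil and all 7 macrophage markers had fitted values below 0 in callus against uninjured bone, of which 2 and 4 passed the test. The mSSC and mBCSP labels of the uninjured arrays thus stand beside high leukocyte transcripts, and a low level of a gene there cannot be told apart from a smaller share of the cells that express it. The callus mBCSP array with no stated surgery had a median rank correlation of 0.772 with the other arrays, against 0.866 to 0.922 for the other 11 callus arrays.

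Callus was compared with uninjured bone to see how the pathway changes with injury. Transcripts of Tgfb2, Tgfb3 and Ltbp1 were 10.7, 5.39 and 6.29 times as high in callus, Fst and Inhba were 2.23 and 2.14 times as high, Tgfbr2 rose and Tgfbr1 fell. Tgfb1, Tgfbr3 and Inhbb did not pass the test. All 10 genes passed the filter on low values. The test was limma with terms for injury, population and title form and the pair as a random block. Form A holds callus only, so with the form term its arrays give no injury difference. The injury values rest on 4 callus and 3 uninjured arrays of form B and 2 callus and 2 uninjured arrays of form C. Among those callus arrays 2 have conflicting labels and 2 have no stated surgery. The fit had no term for surgery, and the uninjured arrays were of sham mice in form C and of sham and OVX mice in form B. Genes with a p under 0.05 after Benjamini-Hochberg adjustment over 14504 genes are said to be called. By this rule 38.8% of all genes were called, 20.9% higher and 17.9% lower in callus. Of the 10 genes, 6 were called higher and 1 lower, and their median log2 fold change was 0.95 against 0.02 over all genes. With a background this high, 7 of 10 is a description of these genes and is no test of the group.

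**Figure D1:**
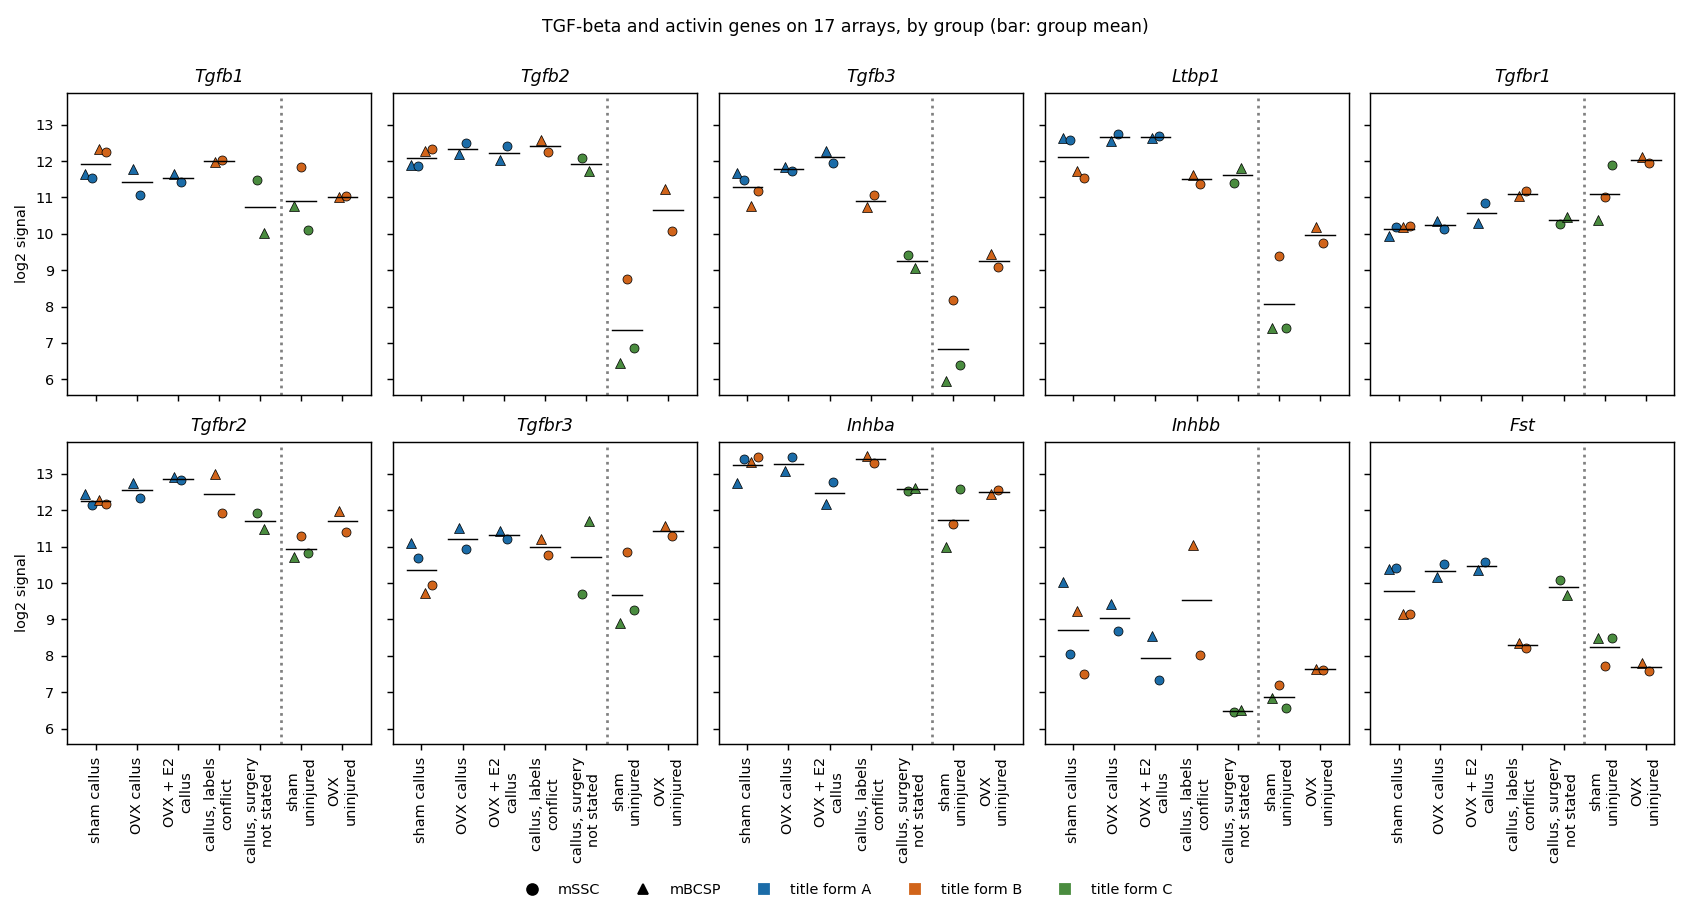
Log2 signal of the 10 genes (vertical axes, shared) on each of the 17 arrays by group, with callus left and uninjured bone right of the dotted line, circles for mSSC, triangles for mBCSP, colors for the title form and a bar at each group mean. Tgfb2 and Ltbp1 lie higher on all 12 callus arrays than on all 5 uninjured arrays, Inhbb spreads most among callus arrays, and Tgfb1 and Tgfbr3 overlap widely. The share of all genes that separate in this way was not counted, and form A holds callus only.

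Tgfb2 encodes a TGF-beta ligand that depends on betaglycan for strong receptor binding. Its log2 signal on the callus arrays had a lowest value of 11.73, a median of 12.22 and a highest value of 12.57. On the uninjured arrays it was 6.45 and 6.85 in the sham mBCSP and mSSC arrays of form C, 8.75 in the sham mSSC array of form B, and 11.23 and 10.09 in the OVX mBCSP and mSSC arrays. The groups did not overlap, and the OVX uninjured arrays were nearest to callus. How many of all genes separate in this way was not counted, here or for the genes below. The log2 fold change was 3.42 (SE 0.47, limma adjusted p = 3.63e-05). Within form B it was 2.20 (adjusted p = 0.009281) and within form C 5.26 (adjusted p = 0.001492). All 4 probe sets of Tgfb2 were called higher in callus, with log2 fold changes from 2.35 to 3.52.

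Tgfb3 encodes the ligand known from palate closure and from cartilage differentiation in culture. Its callus arrays ranged from 9.06 to 12.27 with a median of 11.33. The uninjured arrays had 5.95, which is the floor set for dim signals, and 6.38 in form C, 8.19 in the sham array of form B, and 9.45 and 9.08 in the OVX arrays. The 2 callus arrays of form C, at 9.06 and 9.42, overlapped the OVX uninjured arrays of form B, while within each form every callus array was above every uninjured array. The log2 fold change was 2.43 (SE 0.26, limma adjusted p = 3.633e-06), and it was 2.01 (adjusted p = 0.005171) within form B and 3.07 (adjusted p = 0.00933) within form C.

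Tgfb1, the ligand that is most abundant in bone matrix and in platelets, lay between 10.02 and 12.32 on callus arrays with a median of 11.65. On the uninjured arrays it was 10.76 and 10.11 in form C, 11.84 in the sham array of form B, and 11.02 and 11.03 in the OVX arrays. The groups overlapped, with the lowest value of all on the callus mBCSP array with no stated surgery. The log2 fold change was 0.64 (SE 0.27, limma adjusted p = 0.07436). Without that callus array it was 0.88 (adjusted p = 0.004237), and without the sham uninjured mBCSP array 0.80 (adjusted p = 0.03594). A second Tgfb1 probe set, 1445360_at, was dim, between 6.85 and 8.31, and gave 0.30 (limma adjusted p = 0.4066). The mean of 5 platelet and megakaryocyte markers lay between 7.34 and 9.20 on callus and 7.49 and 11.03 on uninjured arrays, and its part in the Tgfb1 values was not tested.

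Ltbp1, which holds latent TGF-beta in the matrix, had a lowest callus value of 11.38, a median of 12.19 and a highest value of 12.74. The uninjured arrays had 7.42 and 7.42 in form C, 9.39 in the sham array of form B, and 10.19 and 9.75 in the OVX arrays. There was no overlap, and the OVX uninjured arrays were again nearest to callus. In the fit Ltbp1 was higher by a log2 value of 2.65 (SE 0.33, limma adjusted p = 1.217e-05). A second Ltbp1 probe set, 1419786_at, was dim, between 7.27 and 8.45, and gave 0.16 (limma adjusted p = 0.5971). The third, 1447547_at, was at the floor on 16 of the 17 arrays and was not tested. The part of the skeletal markers in the Tgfb2, Tgfb3 and Ltbp1 values was not tested, and all 6 of those markers were called higher in callus with a median log2 fold change of 2.66.

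Among the signaling receptors, Tgfbr2, the type II receptor that binds the ligand first, lay between 11.48 and 12.99 in callus (median 12.31). It was 10.72 and 10.83 in form C, 11.29 in the sham array of form B and 11.99 and 11.40 in the OVX arrays of uninjured bone. The ranges overlapped, since the callus mSSC array with conflicting labels (11.92) and the 2 callus arrays of form C (11.93 and 11.48) lay below the OVX uninjured mBCSP array. The log2 fold change was 0.81 (SE 0.20, limma adjusted p = 0.004815). The probe set with the widest range, 1425444_a_at, gave 0.48 (adjusted p = 0.1829), and the third Tgfbr2 probe set, 1422019_at, was at the floor on all 17 arrays and was not tested.

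Tgfbr1, the type I receptor kinase, was the 1 member called lower in callus. It ranged from 9.93 to 11.18 in callus (median 10.28) and was 10.38 and 11.89 in form C, 11.001 in the sham array of form B, and 12.11 and 11.94 in the OVX arrays of uninjured bone. The overlap came from the sham uninjured arrays at 10.38 and 11.001. Its fitted log2 fold change was -0.90 (SE 0.31, limma adjusted p = 0.02861). The call was lost on leaving out any of 5 single arrays, namely the OVX uninjured mBCSP array (-0.71), the sham uninjured mSSC array of form C (-0.71), the sham callus mSSC array of form B (-0.79), the callus mSSC array with no stated surgery (-0.79) or the OVX uninjured mSSC array (adjusted p = 0.05347). Probe set 1420894_at gave -1.05 (adjusted p = 0.03355) and 1420893_a_at gave -0.21 (adjusted p = 0.7093).

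Tgfbr3, the betaglycan coreceptor, lay between 9.71 and 11.72 in callus (median 11.01) and was 8.91 and 9.25 in form C, 10.84 in the sham array of form B and 11.57 and 11.30 in the OVX arrays of uninjured bone. Its log2 fold change was 0.04 (SE 0.44, limma adjusted p = 0.9594; 95% interval -0.90 to 0.97). It stood at -0.86 (adjusted p = 0.1289) within form B and 1.63 (adjusted p = 0.2172) within form C. Without the 4 callus arrays of conflicting or unstated surgery it was -1.44 (adjusted p = 0.0004759). That value rests on the sham callus pair against the uninjured arrays of form B. A second Tgfbr3 probe set, 1425620_at, lay between 7.40 and 11.04 and gave 0.15 (limma adjusted p = 0.7505). No single direction held for this gene.

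Inhba encodes the subunit of activin A. Its callus arrays ranged from 12.17 to 13.50 (median 13.20), and the uninjured arrays had 10.998 and 12.58 in form C, 11.61 in the sham array of form B, and 12.45 and 12.55 in the OVX arrays. The ranges overlapped through the OVX + E2 callus mBCSP array at 12.17 and the callus mSSC array with no stated surgery at 12.54. The log2 fold change was 1.10 (SE 0.28, limma adjusted p = 0.005389). Within form C it was 0.79 (adjusted p = 0.5078). A second Inhba probe set, 1458291_at, was dim, between 6.26 and 7.67, and gave 0.05.

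Fst, the activin trap, had callus values from 8.21 to 10.59 (median 10.12). On uninjured arrays it was 8.48 and 8.49 in form C, 7.73 in the sham array of form B and 7.79 and 7.58 in the OVX arrays. Only the 2 callus arrays with conflicting surgery labels, at 8.36 and 8.21, lay as low as uninjured arrays. On the log2 scale Fst was higher by 1.16 (SE 0.21, limma adjusted p = 3.412e-04), and the second Fst probe set gave 1.41 (adjusted p = 0.003183).

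Inhbb, which encodes the subunit of activin B, ranged from 6.47 to 11.04 in callus (median 8.30) and from 6.57 to 7.64 in uninjured bone. The ranges overlapped, and its 2 callus arrays of form C were the lowest of all 17. The log2 fold change was 0.73 (SE 0.48, limma adjusted p = 0.2512), 1.22 (adjusted p = 0.1362) within form B and -0.22 (adjusted p = 0.8725) within form C. The second probe set, 1426859_at, was dim (6.99 to 7.82) and gave 0.05.

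By group, the mean Tgfb2 signal was 12.09 ± 0.25 (SD, n = 4) in sham callus, 12.34 ± 0.21 (n = 2) in OVX callus, 12.23 ± 0.27 (n = 2) in OVX + E2 callus, 10.66 ± 0.81 (n = 2) in OVX uninjured and 7.35 ± 1.23 (n = 3) in sham uninjured bone. These callus means differed by about their SDs or less, and the step from callus to OVX uninjured bone was larger than the SDs. Sham callus arrays are of forms A and B, OVX and OVX + E2 callus arrays of form A and OVX uninjured arrays of form B. The title form is thus mixed into these steps too. The sham uninjured mean pools 2 arrays of form C with 1 of form B, whereas both OVX uninjured arrays are of form B, so the step between them mixes surgery with title form and was 1.91 and not called with the form as a term. For Tgfb3 the means were 12.11 ± 0.23 in OVX + E2 callus, 11.78 ± 0.08 in OVX callus, 11.28 ± 0.39 in sham callus, 9.26 ± 0.26 in OVX uninjured and 6.84 ± 1.19 in sham uninjured bone, where the same mixing holds, and the sham callus arrays came from forms A and B while the other 2 callus groups came from form A alone. Inhba means were 13.28 ± 0.27 in OVX, 13.24 ± 0.33 in sham and 12.47 ± 0.43 in OVX + E2 callus. In uninjured bone they were 12.50 ± 0.07 (OVX) and 11.73 ± 0.80 (sham). The means of OVX + E2 callus and OVX uninjured bone were close, but these arrays are of forms A and B. Injury, estradiol and title form are thus mixed between them. In groups with n = 2 the SD is the spread between 1 mSSC and 1 mBCSP array and not between repeats.

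The wider pathway was followed in 4 lists, whose counts are descriptions to be read against the 20.9% of all genes called higher, the 17.9% called lower and the all-gene median of 0.02. Of 13 other extracellular genes tested (20 listed, 17 with a named probe set), 9 were called higher and 1 lower in callus, with a median log2 fold change of 1.05. On the log2 scale Emilin1, a matrix protein that restrains TGF-beta processing, rose by 3.25, the Ltbp1 relatives Ltbp4, Ltbp2 and Ltbp3 by 2.75, 2.21 and 1.69, and the TGF-beta binding proteoglycan Bgn by 1.97. Itgb5, an integrin subunit, rose by 1.34, the inhibin subunit Inha by 1.05, the convertase Furin by 0.76 and Thbs1, an activator of latent TGF-beta, by 0.59. Nrros, which holds latent TGF-beta on macrophages and microglia, was called lower, at -2.42, and the macrophage markers had a median of -1.50 in the same comparison. Inhbc, Inhbe, Itgb6 and Itgb8 were too dim to be tested, and no probe set named for Mstn, Lrrc32 or Fbn1 alone was used here.

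Of 6 other receptor genes tested (7 listed), 2 were called higher and 1 lower, with a median of 0.10, and 3 of 6 is near the 38.8% of all genes that were called. Bambi, a decoy receptor, rose by 2.57 on the log2 scale (SE 0.21, limma adjusted p = 3.069e-07), and the type I receptor Acvr1 rose by 2.36. Acvrl1, a type I receptor of endothelial cells, was called lower, at -1.18. The activin receptors Acvr1b, Acvr2a and Acvr2b stood at -0.66, 0.04 and 0.16 and were not called, and Acvr1c was too dim to be tested.

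Of 11 intracellular genes, 6 were called higher and 0 lower (median 0.77), where 20.9% of all genes were called higher and 17.9% lower. Pmepa1, a feedback inhibitor that binds Smads, rose by 3.47 on the log2 scale, Zfyve9, the Smad anchor, by 1.70, the corepressor Ski by 1.005, the ubiquitin ligase Smurf1 by 0.999, the inhibitory Smad7 by 0.99 and the signal carrier Smad3 by 0.77. Smad2 stood at -0.67 (adjusted p = 0.08869) and Smad4 at 0.17. Of 10 genes known as TGF-beta targets (11 listed), 7 were called higher and 0 lower, with a median of 0.996, against the same background. Pmepa1, Smad7, Skil and Tgif1 are in both lists, so the counts share genes. Besides Pmepa1 and Smad7 the called targets were Snai1 (2.09), Ccn2 (1.16), Tgfbi (1.14), Bhlhe40 (1.001) and Klf10 (0.74). Junb, Tgif1 and Skil stood at 0.80, 0.40 and 0.13 and were not called.

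**Figure D2:**
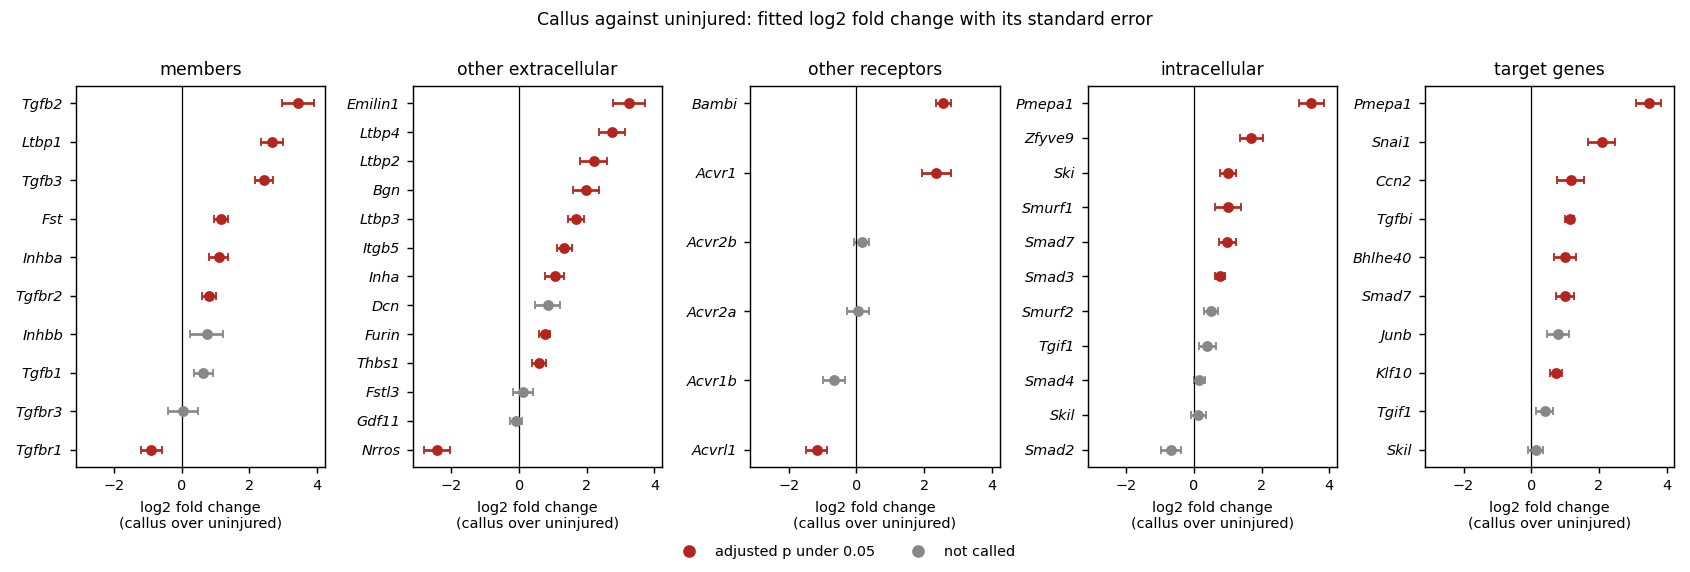
Fitted log2 fold change of callus over uninjured bone (horizontal axes) with its standard error for the 10 members and the 4 pathway lists, red where the adjusted p was under 0.05 and grey where it was not. Tgfb2, Ltbp1 and Tgfb3 lie at 3.42, 2.65 and 2.43, and Tgfbr1, Acvrl1 and Nrros are the genes called below 0.

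Over the 17 arrays the genes with the widest ranges were Tgfb3 (6.32), Tgfb2 (6.12) and Ltbp1 (5.32). The genes whose signal followed Tgfb3 most closely were Clmp (Pearson r = 0.98), Ltbp3 (0.97), Zfp521 (0.97) and Plekhf1 (0.97). Those nearest to Tgfb2 were Fkbp9 and Fermt2 (0.99 each), Kank2 and Fat1 (0.99 each), and those nearest to Ltbp1 were Mxra8 (0.99), Antxr1, Dse and Lpar1 (0.99 each). These correlations are over 17 arrays that share the split between callus and uninjured bone and are given as a description.

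The difference between callus and uninjured bone was then compared between the title forms that hold both. In form C minus form B the log2 fold change of Ltbp1 was larger by 2.47 (SE 0.37, limma adjusted p = 0.0207), in a comparison that called 0.889% of all genes. The callus arrays were level, at 11.40 and 11.82 in form C and 11.38 to 11.72 in form B. The uninjured arrays were apart, at 7.42 in form C and 9.39 to 10.19 in form B. Both uninjured arrays of form C are sham, whereas those of form B are the OVX arrays and a sham array. The callus arrays of form C have no stated surgery, and this fit had no surgery term. The difference between the forms thus mixes title form with surgery. For Tgfb2 the difference was 3.01 (SE 0.73, adjusted p = 0.09904) and for Tgfbr3 2.53 (SE 0.76, adjusted p = 0.1721). The skeletal marker means of the same uninjured arrays were 7.83 and 8.27 in form C and 9.99 to 11.01 in form B, and their part was not tested. The Ltbp1 call was lost on leaving out any of 5 single arrays, both OVX uninjured arrays and both sham uninjured arrays of form C among them, with values from 2.28 to 2.66. The other was the callus mBCSP array with no stated surgery. The call was also lost when arrays were scaled to a common median in place of quantile normalization (2.10, adjusted p = 0.06614).

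**Figure D3:**
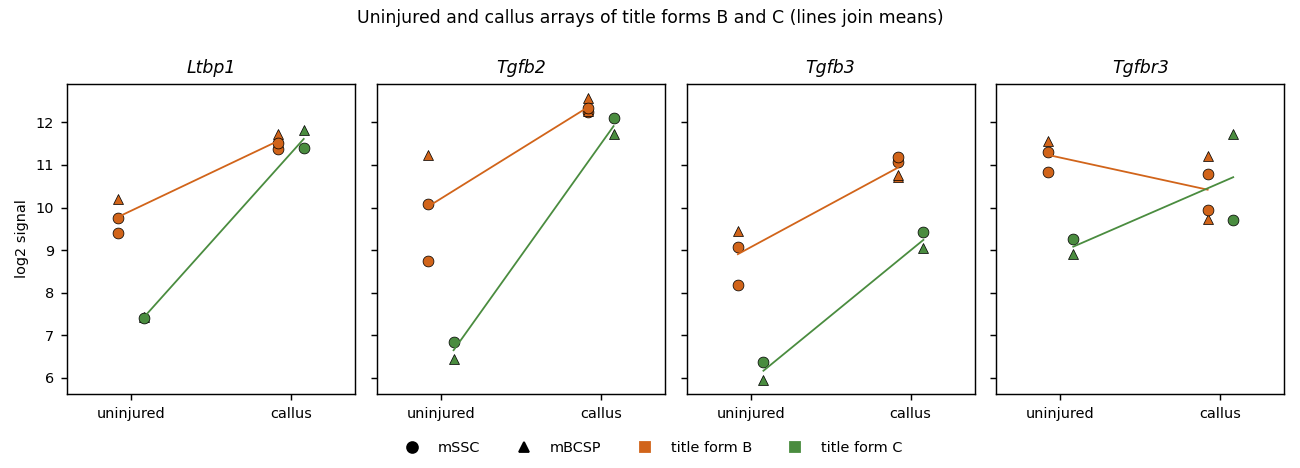
Log2 signal of Ltbp1, Tgfb2, Tgfb3 and Tgfbr3 (vertical axes, shared) on uninjured and callus arrays of title forms B (orange) and C (green), circles for mSSC and triangles for mBCSP, with lines that join the means. The forms meet in callus for Ltbp1 and Tgfb2 and lie apart in uninjured bone, and the Tgfbr3 lines cross. The uninjured arrays are sham in form C and sham or OVX in form B.

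Forms A and B both hold a pair of sham callus arrays, and 2.91% of all genes were called between them. Each form has a single such pair. The SE thus measures how the mSSC to mBCSP difference varies over the 8 pairs and no spread between repeats of a form. Fst was 10.38 and 10.42 in form A and 9.15 and 9.14 in form B, a log2 difference of -1.26 (SE 0.26, limma adjusted p = 0.02783). Ltbp1 was 12.63 and 12.57 in form A and 11.72 and 11.52 in form B, a difference of -0.98 (SE 0.22, adjusted p = 0.0394). Both calls were lost on leaving out any of the 4 sham, 2 OVX or 2 OVX + E2 callus arrays, with differences of -1.21 to -1.31 for Fst and -0.93 to -1.03 for Ltbp1. That of Ltbp1 was also lost without either OVX uninjured array or either callus array with conflicting labels. Arrays of 1 labelled condition thus differed by about as much in Fst as callus did from uninjured bone.

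The mSSC and mBCSP arrays were compared to see how the genes differ between stem cells and their progeny. None of the 10 genes was called, and 0% of all genes were (limma, where 1401 genes had an unadjusted p under 0.05 and the lowest adjusted p was 0.1892). The median log2 fold change of mSSC over mBCSP was -0.02 over the 10 genes. Inhbb was lower in the mSSC array of all 8 pairs, with differences of -0.75 to -3.00 in the 5 callus pairs of forms A and B and of -0.04 to -0.28 in the other 3. On the form C arrays its signal was dim, from 6.47 to 6.85. The log2 fold change of Inhbb was -1.13 (SE 0.32, adjusted p = 0.3696), and its dim second probe set, 1426859_at, gave -0.04. Inhba was higher in the mSSC array of 6 of 8 pairs, with differences from -0.20 to 1.59. The log2 fold change of Inhba was 0.40 (SE 0.17, adjusted p = 0.5044), and its dim second probe set, 1458291_at, gave -0.24. Tgfb2 stood at 0.00 (95% interval -0.38 to 0.38), Tgfb3 at 0.07 and Tgfb1 at -0.03.

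Endothelial markers moved with this comparison. All 6 had negative fitted values, with a median of -2.24, and none was called. Their mean lay between 6.88 and 8.14 on mSSC arrays and between 7.60 and 12.32 on mBCSP arrays, where Tek, which encodes the Tie2 antigen the sort was stained for, reached 11.70. In the 8 pairs the mean of these markers differed by 0.01 to -5.33, with the 2 largest differences, -5.33 and -4.21, in the pairs where Inhbb differed by -3.00 and -1.72. In the OVX uninjured pair the markers differed by -2.90 and Inhbb by -0.04. In the sham callus pair of form A Inhbb differed by -1.98 and the markers by -1.58. Their part in the Inhbb values was not tested. Eng, which encodes the CD105 antigen that divides mBCSP from mSSC, stood at -1.26 (adjusted p = 0.312). The other pathway lists had no called gene, and their 2 genes of smallest p were Ltbp3 (-0.38) and Ltbp2 (-0.60), Acvrl1 (-0.61) and Bambi (0.46), Smad2 (0.44) and Skil (0.21), and Ccn2 (-0.32) and Skil. For all of these the adjusted p was at least 0.3378.

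The change with injury did not pass a test of difference between the populations for any of the 10 genes, and 0% of all genes were called (limma, 826 at an unadjusted p under 0.05). The largest difference was that of Inhbb, -1.10 (SE 0.73, adjusted p = 0.8655).

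**Figure D4:**
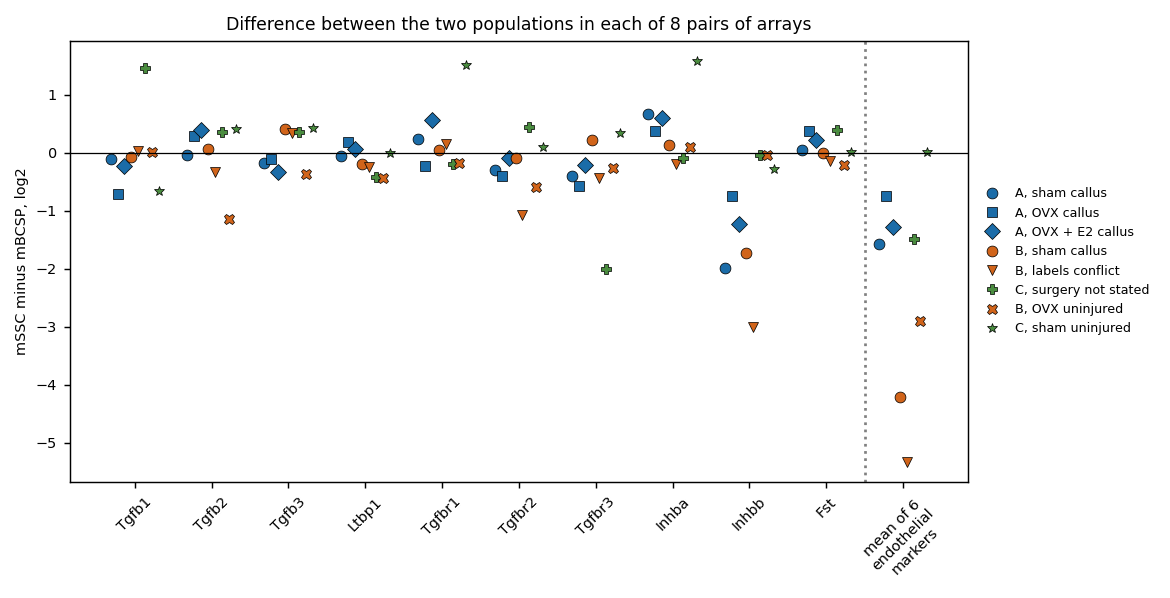
Difference in log2 signal, mSSC minus mBCSP (vertical axis), in each of the 8 pairs of arrays for the 10 genes and, right of the dotted line, for the mean of 6 endothelial markers, with colors for the title form and a symbol for each pair. Inhbb is below 0 in all 8 pairs and the endothelial mean in 7, and the other genes lie on both sides of 0.

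OVX callus was compared with sham callus to see the effect of ovary removal on the pathway during repair. None of the 10 genes was called, nor any of the 14504 (0%; limma, where 293 genes had an unadjusted p under 0.05 and the lowest adjusted p was 0.2528). In these callus comparisons each pair has a level of its own in the fit, so the SE measures how the mSSC to mBCSP difference varies over the 8 pairs and no spread between repeated mice. By the probe sets that stood for the genes, the widest member value was that of Tgfb2. Its signal was 11.89 and 11.86 in the sham mBCSP and mSSC arrays of form A and 12.19 and 12.49 in the OVX arrays. Its log2 fold change was 0.47 (SE 0.35, adjusted p = 1; 95% interval -0.29 to 1.23). Both OVX arrays were above their sham counterparts, and the 2 arrays with conflicting labels differed from the sham callus arrays of form B by 0.30 (mBCSP) and -0.09 (mSSC). The other 9 genes lay between -0.16 (Tgfb1) and 0.33 (Tgfbr3). The widest values among their other probe sets were those of Tgfbr2 (1425444_a_at, -0.61), Tgfbr1 (1420893_a_at, 0.57) and Fst (1434458_at, 0.54). The other Tgfb2 probe sets gave 0.06 to 0.32. The 95% intervals of Ltbp1 (-0.44 to 0.53) and Fst (-0.63 to 0.51) were the narrowest, and that of Inhbb (-1.38 to 1.42) the widest. No pathway list had a called gene, and the smallest p values belonged to Junb (-0.59), Acvrl1 (-0.45), Smurf2 (0.36), Smad2 (0.56), Furin (-0.29), Acvr2b (-0.43), Ltbp2 (0.34) and Skil (0.31), with an adjusted p of 1 for each.

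The OVX + E2 and OVX callus arrays, all of form A, were compared to see the effect of estradiol. In this comparison 0.0207% of genes were called and none of the 10 was. Inhba was 13.09 and 13.47 in the OVX mBCSP and mSSC arrays and 12.17 and 12.77 in the OVX + E2 arrays. The differences were -0.93 in mBCSP and -0.70 in mSSC arrays, with a log2 fold change of -0.81 (SE 0.35, unadjusted p = 0.04017 and adjusted p = 1 by limma). Inhbb was 9.43 and 8.68 in the OVX and 8.55 and 7.33 in the OVX + E2 arrays, a log2 fold change of -1.11 (SE 0.64, adjusted p = 1). By these probe sets both activin subunit genes had lower signals on the OVX + E2 arrays without passing the test. Their second probe sets, both dim, gave 0.20 for Inhba (1458291_at) and 0.11 for Inhbb (1426859_at). The other 8 genes lay between -0.11 (Tgfb2) and 0.34 (Tgfbr1).

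In the same comparison Inha, the third inhibin subunit gene, stood at -0.69 (SE 0.28, unadjusted p = 0.03446, adjusted p = 1 by limma). The other genes of smallest p were Furin (0.39), Acvr2b (0.46), Acvr1 (-0.23), Skil (-0.59), Smurf2 (-0.33) and Bhlhe40 (-0.37). Among the targets 9 of 10 and among the intracellular genes 10 of 11 had negative values, as did 6712 of all 14504 genes. The medians were -0.13 and -0.18 against 0.02 over all genes, and none was called. Pmepa1, Smad7, Skil and Tgif1 are in both lists, so these counts share genes. All 7 neutrophil and all 7 macrophage markers had positive values with medians of 1.70 and 1.80. The neutrophil mean was 9.78 and 10.87 on the OVX arrays and 11.03 and 13.19 on the OVX + E2 arrays, and its part in the Inhba and Inhbb values was not tested.

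In uninjured bone, OVX arrays were compared with sham arrays, which with the title form as a term rests on a single sham mSSC array of form B. In this comparison 0.145% of genes were called and none of the 10 was. Tgfb2 was 8.75 on that sham array and 11.23 and 10.09 on the OVX arrays, a log2 fold change of 1.91 (SE 0.43, limma adjusted p = 0.1723). Its other 3 probe sets gave lower values, 0.19 (1423250_a_at), 1.31 (1438303_at) and 1.31 (1450922_a_at). Tgfb3 was 8.19 against 9.45 and 9.08 (1.10, SE 0.36, adjusted p = 0.388), and Tgfbr1 was 11.001 against 12.11 and 11.94 (1.14, SE 0.47, adjusted p = 0.5752), with 0.27 (1420893_a_at) and 0.92 (1420894_at) from its other probe sets. Inhba was 11.61 against 12.45 and 12.55 (1.09, SE 0.44, adjusted p = 0.5554). For each of these 4 genes both OVX arrays were above the sham array. Without the title form as a term, when the 2 sham arrays of form C entered too, Tgfb2 stood at 3.34 (adjusted p = 0.00852) and Tgfb3 at 2.46 (adjusted p = 0.02255). Without the OVX uninjured mSSC array Tgfb2 stood at 2.65 and without the OVX uninjured mBCSP array at 1.34, values that set 1 OVX array against 1 sham array, of different populations in the first, with no spread within either side. Ltbp1 stood at 0.51 (SE 0.27, adjusted p = 0.7356).

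On the same arrays the means of the skeletal markers were 9.99 (sham, form B) and 10.57 and 11.01 (OVX), and all 5 platelet markers had negative values with a median of -1.89. Their part in these values was not tested. The pathway genes of smallest p were Acvr1 (1.79, SE 0.36, limma adjusted p = 0.1047) and Acvrl1 (-1.23), Thbs1 (-0.91), Bgn (0.78), Smad7 (0.69), Bhlhe40 (0.82) and Skil (0.65).

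**Figure D5:**
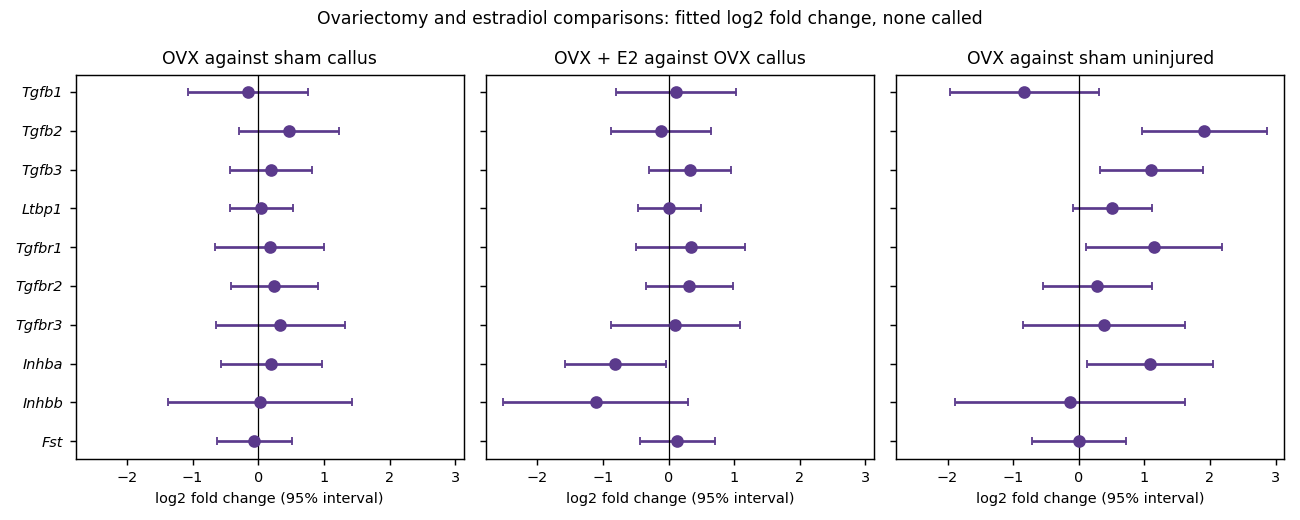
Fitted log2 fold change (horizontal axes) with its 95% interval for the 10 genes in OVX against sham callus, OVX + E2 against OVX callus and OVX against sham uninjured bone. No gene was called, Inhba lies at -0.81 with estradiol, and Tgfb2 lies at 1.91 in uninjured bone in a comparison with a single sham array.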

How the data were processed

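RNA of sorted mSSCs and mBCSPs was measured on 17 Affymetrix mouse expression arrays. By the study's methods RNA was amplified in 2 rounds and arrays were normalized in dChip and Gene Expression Commons, whereas the submitters' processing notes name MAS5, so which tool made the deposited log2 signals is not settled. The deposited log2 values were taken as 1 column per array. Control probe sets (64) were left out. After quantile normalization on the linear scale, signals below the 20th percentile were set to it (log2 5.951) and log2 was taken again. The floor understates the fold change of dim genes. The probe set of highest mean stood for a gene (the methods use the widest range in a reference collection, here tried over the 17 arrays), which gave 18193 genes, and the 14504 that reached the 40th percentile (log2 7.198) on 2 or more arrays were tested. Probe sets with several symbols (932) or none (9160) were not used for genes. The number of arrays limits the precision.

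Groups were taken from the labels. The injury comparison was fitted with limma 3.58.1 in R 4.3.3 (eBayes with trend) with injury, population and title form, and the pair of arrays as a random block (consensus correlation 0.133, 12 residual degrees of freedom). The interactions of injury used the same block. The other comparisons used 7 groups with population and title form (10 coefficients, 7 residual degrees of freedom, with a median of 4.06 added by moderation). The scripts were tested on simulated data with known changes. The 10 genes, pathway lists and marker lists were chosen with earlier results of these data known. By rule the text names all 10 genes, the called genes of the pathway lists or, with none called, the 2 with the lowest p, and for the 3 members of widest range the 4 genes of highest correlation. Alternatives changed the normalization, floor, filter, probe set, title form term, moderation, block and the placing of arrays of unsettled surgery, and left out each array. A fit without the 4 callus arrays of unsettled surgery was added after the data were seen.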

Additional observations from a re-analysis of the deposited data

Results flagged for a closer look

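The lowest Tgfbr1 signal in sham callus, 9.93 on the mBCSP array of form A, lay apart from the other 3 sham callus arrays, the nearest of which had 10.18. It was the 1 such array in 20 groups examined (the 10 genes in sham callus and in uninjured bone), and chance gives about 1 in 20. The change of Ltbp1 between callus and uninjured bone differed between title forms C and B by a log2 value of 2.47 (SE 0.37, limma adjusted p = 0.0207), as described above. The arrays of these forms also differed in surgery, which had no term in that fit.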

How the results depend on the processing

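Over 31 alternatives of the injury comparison Tgfb2 (2.20 to 5.26), Tgfb3 (2.01 to 3.27) and Ltbp1 (1.72 to 4.19) stayed called higher in callus. The other calls changed in 8 alternatives for Tgfbr1, 5 for Tgfb1, 3 for Tgfbr2 and 1 each for Inhba, Fst and Tgfbr3. With each array left out in turn Tgfbr3 ranged from -0.35 to 0.30. It turned negative without the sham uninjured mBCSP array (-0.30), the sham uninjured mSSC array of form C (-0.03) or the callus mBCSP array with no stated surgery (-0.35). It was also negative for sham callus against sham uninjured bone in the fit with groups (-1.21), within form B (-0.86) and without the 4 arrays of unsettled surgery (-1.44). Inhbb turned negative within form C (-0.22). With the title form as a term, that sham comparison rests on the sham callus pair of form B against the single sham uninjured mSSC array of form B. It gave -0.68 for Tgfbr1 and 0.81 for Tgfbr2.

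Counts of called genes moved more than those of members. For injury, 5626 became 3533 in sham arrays alone, 1154 within form C and 11993 of all probe sets, which are more features. The 21 of OVX against sham uninjured bone became 7 with the deposited values, 6 with median scaling, 39 with no filter and 485 with no title form term. The 129 of the injury by title form interaction became 84 with median scaling, 220 with the widest-range probe sets and 335 of all probe sets, and the 422 between forms A and B became 278 and 636 under the last 2. The 0 of the injury by population interaction became 1 with no floor and 5 with no filter. OVX + E2 against sham callus called 3, and 5 with no filter or no title form term. OVX + E2 against OVX callus called 3, then 0 with no title form term and 1 with the conflicting arrays counted as sham, OVX against sham callus called 2 with them counted as OVX, and the population comparison called 1 in the injury fit. The cause of these changes was not tested.

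Leaving out each array in turn gave 4082 to 6422 genes for injury, 0 to 8 for OVX + E2 against OVX callus, 0 to 7 for OVX + E2 against sham callus, 6 to 76 for OVX against sham uninjured bone, 36 to 1084 between forms A and B, 0 to 6 for the injury by population interaction and 0 to 5443 for the injury by title form interaction. The differences of Fst and Ltbp1 between forms A and B kept their direction in every alternative and lost the call in many, for Ltbp1 also with no trend. OVX against sham uninjured bone could not be estimated without the sham mSSC array of form B. The labels number no replicates across groups, so arrays of different injury or surgery groups could not be paired. The pair of mSSC and mBCSP arrays entered as a random block in the injury fit and its interactions. In the population comparison each pair had a level of its own, so that comparison is within pairs.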
